A study of Mus musculus with 4 samples.

Results

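The genes of the RNA polymerase II transcription machinery were examined in ATAC-seq, an assay in which a transposase cuts accessible DNA, in haematopoietic stem cells (HSCs) of mouse bone marrow. The members were the protein-coding mouse genes of RNA polymerase II (Polr2a to Polr2m), of Mediator (symbols starting with Med and a digit), of the TAF series and of the general transcription factors with symbols starting with Gtf2, together with Tbp, Cdk7, Cdk8, Cdk9, Ccnc, Ccnh, Ccnt1 and Ccnt2. They numbered 91 of the 21887 protein-coding genes on the autosomes and both sex chromosomes. The choice used symbols only and no measured value, although earlier results of these data were known when it was made.

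The libraries came from wild-type C57BL/6 male mice aged 8 weeks, with no treatment in either group. Both groups shared the HSC gate, which was lineage-negative, Sca-1-positive and Kit-positive, negative for CD34, Flt3 and CD48 and positive for Slam1. The sort then divided CD93-positive from CD93-negative HSCs, with 2 libraries of each, and the title of the series states a comparison of these fractions. Nothing in the labels names separate animals for the 2 libraries of a fraction, and the spread within a fraction may therefore be technical.

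RNA polymerase II makes the messenger RNAs of the cell. At a promoter it is positioned by TFIID, which contains the TATA-binding protein and its associated factors (TAFs), and by TFIIA, TFIIB, TFIIE, TFIIF and TFIIH, while Mediator connects it to sequence-specific activators. P-TEFb, a cyclin-dependent kinase with cyclin T, releases the paused enzyme into elongation. Most of these genes are used by nearly all cells, whereas a few paralogues, such as Taf7l and Gtf2a1l, are best known from the germ line.

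Each library was represented by a list of peak summits with a score on a −log10 scale (of p or of q, which is not stated), and these scores are not scaled between libraries. The lists held 21 and 711 summits in CD93-positive replicates 1 and 2, against 7989 and 2755 in CD93-negative replicates 1 and 2. Read depth is unknown, so a gene without a summit was not detected in that list, which does not show closed chromatin. A smaller number of cells and less open chromatin per cell cannot be told apart in such bulk libraries. The cell identity could not be checked well from gene ends: of 12 HSC marker genes, Tal1 was the only gene with a summit there, in CD93-negative replicate 1 (score 6.57), and 0 of 15 markers of B, T, myeloid, erythroid and endothelial cells had one in any library.

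The promoters below are those of members with a summit in CD93-positive replicate 2, of members with high scores in the CD93-negative libraries, and of Taf7l, a germ-line paralogue with no summit. They are RefSeq sequences of GRCm38.p6, the assembly behind mm10, written 5′ to 3′ on the strand of the gene, from 250 bases before the listed start to 50 bases after it. Capitals mark matches on either strand to 6 of the 10 motifs searched: the TATA box (TATAAA), the CCAAT box, the GC box (GGGCGG), the core of ETS-factor sites (CCGGAAG), the E-box (CACGTG) and the cyclic-AMP response element (TGACGTCA). Motifs may overlap, as the CCAAT and GC boxes of Ccnt2 do in 1 base and the TATA boxes on both strands of Taf7l do. A match is a run of letters and was not shown to be a bound site.
Med21, chr6:146642329-146642628, plus strand: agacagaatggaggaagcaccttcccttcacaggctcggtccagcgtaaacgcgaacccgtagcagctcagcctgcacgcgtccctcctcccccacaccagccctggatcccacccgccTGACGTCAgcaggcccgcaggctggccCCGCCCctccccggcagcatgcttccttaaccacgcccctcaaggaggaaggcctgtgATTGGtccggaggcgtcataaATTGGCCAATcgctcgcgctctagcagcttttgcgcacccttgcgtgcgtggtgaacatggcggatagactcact
Ccnt1, chr15:98567687-98567986, minus strand: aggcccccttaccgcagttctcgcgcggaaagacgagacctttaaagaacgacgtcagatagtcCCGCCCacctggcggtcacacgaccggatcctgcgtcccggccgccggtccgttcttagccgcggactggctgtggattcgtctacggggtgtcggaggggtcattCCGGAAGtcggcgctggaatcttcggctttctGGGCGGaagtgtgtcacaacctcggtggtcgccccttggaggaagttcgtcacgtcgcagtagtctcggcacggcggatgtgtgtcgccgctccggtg
Gtf2h1, chr7:46795844-46796143, plus strand: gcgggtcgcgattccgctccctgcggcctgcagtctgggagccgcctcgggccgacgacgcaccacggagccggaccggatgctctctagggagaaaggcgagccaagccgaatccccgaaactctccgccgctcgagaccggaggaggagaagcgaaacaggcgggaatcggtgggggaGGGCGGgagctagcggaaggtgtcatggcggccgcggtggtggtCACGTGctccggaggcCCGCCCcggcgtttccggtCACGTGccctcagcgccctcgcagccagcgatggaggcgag
Gtf2h5, chr17:6079578-6079877, plus strand: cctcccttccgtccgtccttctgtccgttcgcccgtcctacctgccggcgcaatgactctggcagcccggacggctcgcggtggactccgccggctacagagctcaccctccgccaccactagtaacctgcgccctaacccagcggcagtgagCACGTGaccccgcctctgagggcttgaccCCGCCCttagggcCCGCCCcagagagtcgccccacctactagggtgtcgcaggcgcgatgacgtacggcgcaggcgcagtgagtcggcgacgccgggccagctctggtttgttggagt
Ccnt2, chr1:127773914-127774213, plus strand: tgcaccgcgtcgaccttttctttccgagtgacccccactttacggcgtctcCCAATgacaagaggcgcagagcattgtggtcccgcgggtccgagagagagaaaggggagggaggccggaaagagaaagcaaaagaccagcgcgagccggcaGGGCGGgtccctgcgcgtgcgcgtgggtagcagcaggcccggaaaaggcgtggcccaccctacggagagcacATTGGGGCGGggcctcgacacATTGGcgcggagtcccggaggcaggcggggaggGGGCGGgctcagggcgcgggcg
Polr2a, chr11:69758584-69758883, minus strand: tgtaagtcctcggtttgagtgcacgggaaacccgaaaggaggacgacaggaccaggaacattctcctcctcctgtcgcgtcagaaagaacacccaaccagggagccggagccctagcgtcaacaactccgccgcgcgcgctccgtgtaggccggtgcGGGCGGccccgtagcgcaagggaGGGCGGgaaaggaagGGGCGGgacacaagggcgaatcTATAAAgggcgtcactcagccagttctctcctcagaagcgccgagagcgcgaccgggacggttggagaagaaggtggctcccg
Gtf2f1, chr17:57011239-57011538, minus strand: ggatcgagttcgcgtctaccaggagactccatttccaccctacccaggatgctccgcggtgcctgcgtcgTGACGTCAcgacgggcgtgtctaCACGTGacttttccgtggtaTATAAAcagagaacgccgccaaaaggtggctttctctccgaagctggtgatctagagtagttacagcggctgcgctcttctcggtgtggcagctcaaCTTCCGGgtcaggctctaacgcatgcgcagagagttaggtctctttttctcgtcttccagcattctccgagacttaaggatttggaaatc
Taf7l, chrX:134476441-134476740, minus strand: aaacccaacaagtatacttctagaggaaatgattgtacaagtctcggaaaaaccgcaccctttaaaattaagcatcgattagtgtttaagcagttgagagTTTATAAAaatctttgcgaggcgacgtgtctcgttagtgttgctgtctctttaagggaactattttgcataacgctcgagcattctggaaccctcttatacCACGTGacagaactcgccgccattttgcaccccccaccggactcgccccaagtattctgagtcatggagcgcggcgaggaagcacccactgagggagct

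Summits at the ends of the members were listed mainly in CD93-negative HSCs, at subunits of every complex except the TFII-I family. In that family Gtf2ird2 and Gtf2i had summits in CD93-negative replicate 1, at 511 and 1143 bp from their listed starts, but not at an annotated gene end. Over all genes, 67.6% had no summit at a gene end in any library. The absence in a family of 3 genes cannot be told from that share. A gene-end summit, one within 1000 bp of either end of the gene, was found at 0 and 6 of the 91 members in CD93-positive replicates 1 and 2, against 64 and 25 in CD93-negative replicates 1 and 2. The means were 3 ± 4.24 and 44.5 ± 27.6 members (SD, n = 2 each), a difference of -41.5, and the counts of the groups did not overlap. An exact permutation test gave p = 0.33 (two-sided), the smallest p that 2 libraries against 2 can give, so the difference did not pass. Without CD93-negative replicate 1 the difference was -22.

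Among all protein-coding genes, the lists reached 0.0183% and 3.22% for the CD93-positive replicates 1 and 2, against 32.2% and 12.9% for the CD93-negative ones. Against these, the members stood at 6.59% (95% interval 2.46 to 13.8) in CD93-positive replicate 2, and at 70.3% (59.8 to 79.5) and 27.5% (18.6 to 37.8) in CD93-negative replicates 1 and 2. The member share was thus above that of all genes in each of the 3 longer lists, and the interval held the share of all genes only in CD93-positive replicate 2. The intervals are exact Clopper-Pearson intervals that treat genes as independent and cover counting error only.

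At equal list length the counts of the groups were close. With the 711 highest-scoring summits of each list, CD93-positive replicate 2 had 6 members, against 6 in CD93-negative replicate 1 and 7 in CD93-negative replicate 2, where these shortened lists reached 3.28% and 3.38% of all genes. The mean difference was then -3.5, with CD93-positive replicate 1 still at 0 (exact permutation p = 0.667). CD93-positive replicate 2 had Ccnt1, Gtf2a1 and Gtf2h1 in common with the 6 members of CD93-negative replicate 1, and Gtf2a1 with the 7 of CD93-negative replicate 2. The shortened CD93-negative lists had Ccnt2, Gtf2a1 and Med26 in common, so that Gtf2a1 was the single member in all 3.

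**Figure D1:**
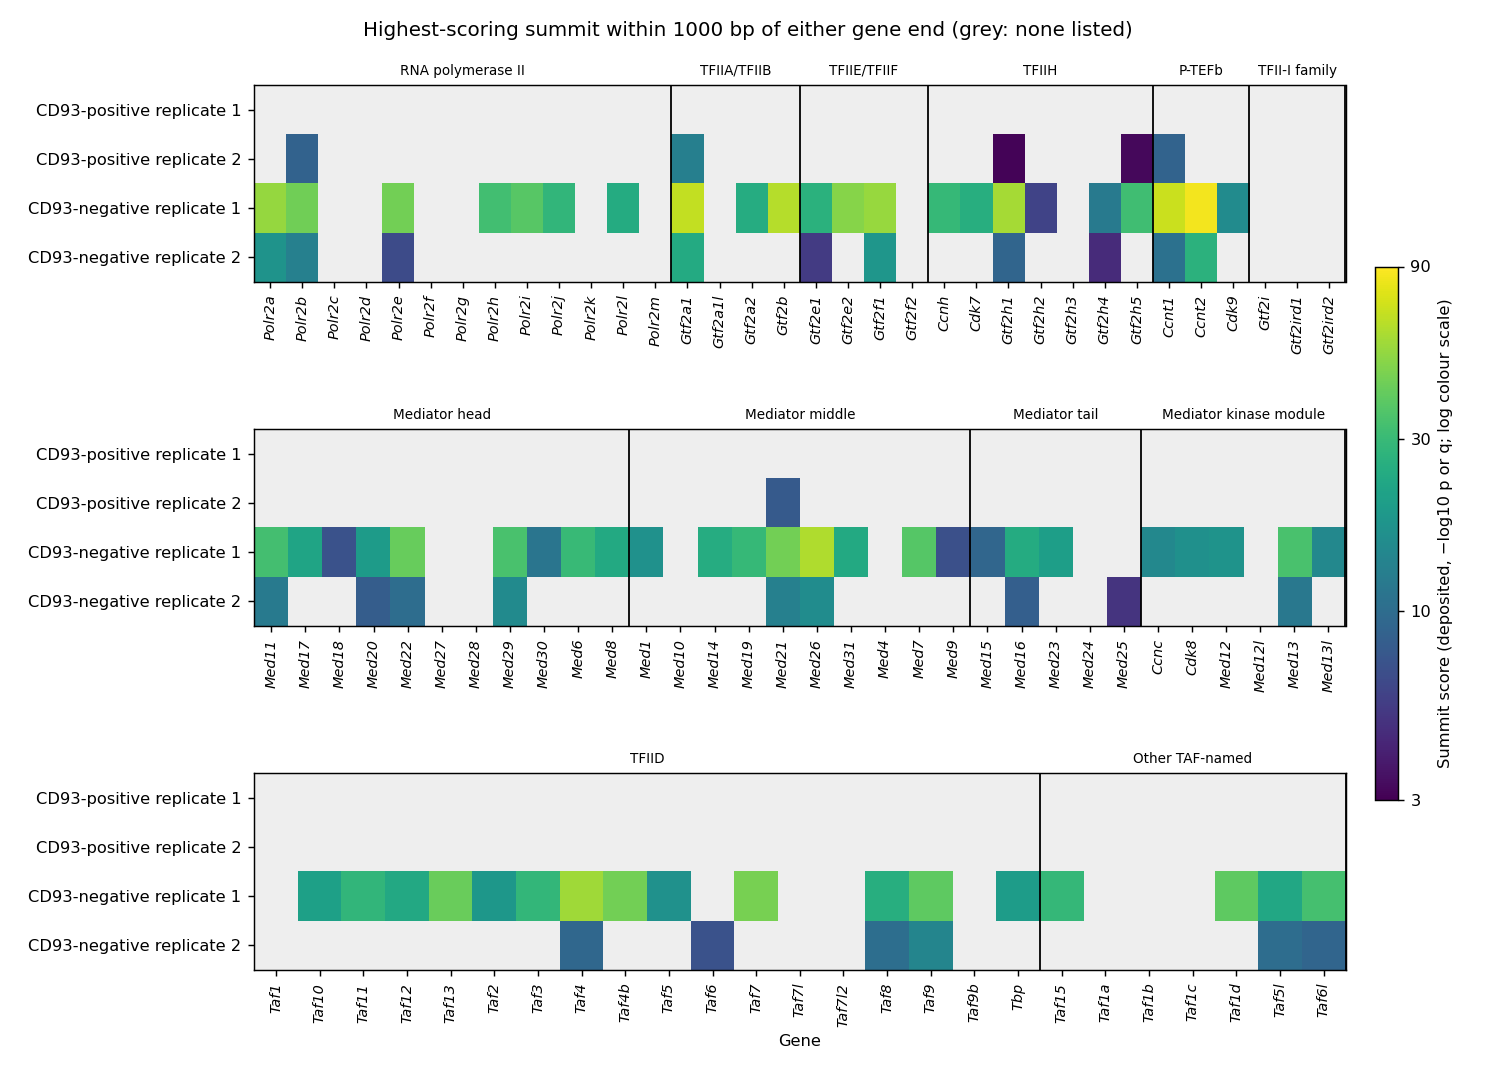
Highest gene-end summit score of each of the 91 members (columns, grouped by complex) in the 4 libraries (rows), on a log colour scale from 3 to 90; grey cells have no listed summit. CD93-positive replicate 1 has none, CD93-positive replicate 2 has 6, and CD93-negative replicates 1 and 2 have 64 and 25.

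All 6 members listed in CD93-positive replicate 2 were also listed in CD93-negative replicate 1, and 5 of them in CD93-negative replicate 2. They were Gtf2a1, Ccnt1, Polr2b, Med21, Gtf2h5 and Gtf2h1, 1 or 2 each from TFIIA, P-TEFb, the polymerase, Mediator and TFIIH. None of the 6 was a TFIID gene, in a list that reached 3.22% of all genes. Of the 23 members listed in both CD93-negative libraries, 5 were in CD93-positive replicate 2 (21.7%), against 608 of 2787 among all genes in both (21.8%), a share near the background. Over all genes, 12.7% were in both CD93-negative libraries and 2.78% in these and CD93-positive replicate 2.

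Gtf2a1, which encodes the large subunit of TFIIA, scored 13.04 in CD93-positive replicate 2, against 65.7 and 23.9 in CD93-negative replicates 1 and 2. It ranked 106 of 711, 414 of 7989 and 74 of 2755 in these lists, and was the highest-scoring member of CD93-positive replicate 2. Its summits lay on chromosome 12 at 91590099, 91590139 and 91590173, inside the gene and 388, 348 and 314 bp downstream of the listed start.

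Ccnt1, the cyclin that partners Cdk9 in P-TEFb, scored 8.89 in CD93-positive replicate 2, against 68.4 and 10.7 in CD93-negative replicates 1 and 2. Its ranks were 301, 357 and 1183, so it stood much higher in the list of CD93-negative replicate 1 than in that of CD93-negative replicate 2. The summits on chromosome 15 lay 131, 97 and 188 bp upstream of the start, all of them upstream of the ETS core printed above.

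Polr2b, the second-largest catalytic subunit of the polymerase, scored 8.78 in CD93-positive replicate 2, against 43.1 and 13.2 in CD93-negative replicates 1 and 2. Med21, a subunit of the Mediator middle module, scored 7.86 in CD93-positive replicate 2, against 43.7 and 13.2 in CD93-negative replicates 1 and 2. Both genes were thus listed in 3 libraries, and in CD93-positive replicate 2 they ranked 302 and 383 of 711. The Polr2b summits lay 325, 335 and 166 bp upstream of its start, and each was nearer to an end of Noa1, which lies beside it. Those of Med21 lay 49 and 61 bp upstream and at the start itself, on both sides of the 3 CCAAT boxes in its promoter.

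Gtf2h1 and Gtf2h5 encode the p62 subunit and the smallest subunit of TFIIH, the complex that opens promoter DNA and also acts in nucleotide excision repair. Gtf2h1 scored 3.12 in CD93-positive replicate 2, against 56.9 and 9.13 in CD93-negative replicates 1 and 2. Gtf2h5 scored 3.25 in CD93-positive replicate 2, against a score of 31.6 in CD93-negative replicate 1, and was not listed in CD93-negative replicate 2. In CD93-positive replicate 2 these ranked 709 and 704 of 711, at the bottom of a list whose lowest score was 3.09. Both genes share their site with a neighbour read from the other strand: the Gtf2h1 summits lay 151, 61 and 28 bp from the start of Hps5, and the Gtf2h5 summits 52 and 57 bp from the start of Serac1.

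Ccnt2, the other cyclin T gene, was the highest-scoring member of both CD93-negative libraries and was absent from CD93-positive replicate 2. It was listed in neither CD93-positive library, against scores of 85.1 and 26.8 in CD93-negative replicates 1 and 2, with ranks of 139 of 7989 and 40 of 2755. Both CD93-negative libraries were therefore high and no CD93-positive library had the site, and the nearest summit of CD93-positive replicate 2 lay 298347 bp from an end of the gene. Of 9 other genes that scored at least as high in both CD93-negative libraries, 8 had a gene-end summit in CD93-positive replicate 2. This last comparison was chosen after the values were seen, and whether the group or the short list gave the absence was not tested. The Ccnt2 summits lay 86 and 143 bp upstream of the start, in a promoter with 3 CCAAT and 3 GC boxes.

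**Figure D2:**
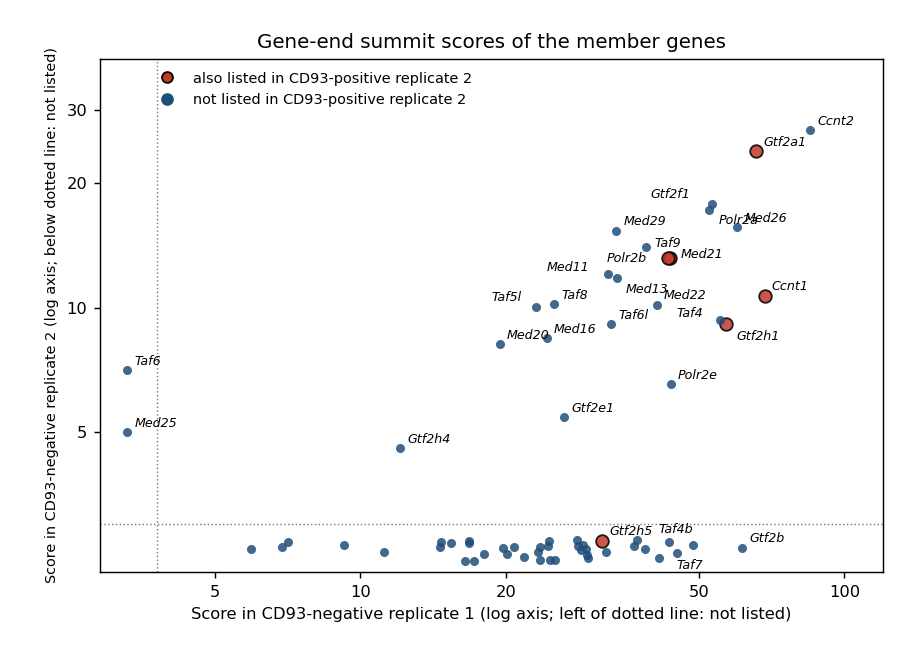
Score of each listed member in CD93-negative replicate 1 (horizontal, log axis) and CD93-negative replicate 2 (vertical, log axis), with unlisted genes beyond the dotted lines and jittered for view. The 6 members also listed in CD93-positive replicate 2 are in red with a black rim; Ccnt2, at 85.1 and 26.8, is highest in both CD93-negative lists and is not among them.

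The polymerase subunits were listed in part. Of the 13 Polr2 genes, 1 was listed in CD93-positive replicate 2, against 7 listed in CD93-negative replicate 1 and 3 in CD93-negative replicate 2. These 3 lists reached 3.22%, 32.2% and 12.9% of all genes. Polr2a encodes the largest subunit, whose C-terminal repeat domain is phosphorylated through the transcription cycle. It was listed in no CD93-positive library, against scores of 52.6 and 17.2 in CD93-negative replicates 1 and 2, and its summits lay 4 and 7 bp upstream of the start. Its promoter above holds a TATA box 33 bp upstream of the start, and 3 GC boxes upstream of that. Polr2e, a subunit common to all nuclear RNA polymerases, scored 43.8 and 6.55 in CD93-negative replicates 1 and 2 alone. Polr2h, Polr2i, Polr2j and Polr2l were listed in CD93-negative replicate 1 only, with scores of 24.4 to 37.3. Polr2c, Polr2d, Polr2f, Polr2g, Polr2k and Polr2m were listed in none of the 4 libraries. Among them, Polr2d and Polr2g encode the stalk of the enzyme.

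Of the 18 TFIID genes, 0 were listed in either CD93-positive library, against 13 in CD93-negative replicate 1 and 4 in CD93-negative replicate 2. Over all genes the lists reached 0.0183% and 3.22% in CD93-positive replicates 1 and 2, against 32.2% and 12.9% in CD93-negative replicates 1 and 2. A count of 0 among 18 genes is thus near the share over all genes in the CD93-positive lists. Taf4 scored 55.3 and 9.33 in CD93-negative replicates 1 and 2, Taf9 38.9 and 14.02, and Taf8 25.1 and 10.2. Taf6 was listed in CD93-negative replicate 2 alone, with a score of 7.05. Tbp, the TATA-binding protein itself, was listed in CD93-negative replicate 1 only (19.7), 32 bp upstream of its start. Taf2, Taf3, Taf5, Taf7, Taf10, Taf11, Taf12, Taf13 and Taf4b were likewise in CD93-negative replicate 1 only, at 16.8 to 45.0.

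The factors that join TFIID at the promoter were each listed in part. Gtf2a2, the small subunit of TFIIA, scored 24.6 in CD93-negative replicate 1 alone. Gtf2b, the single gene of TFIIB, had the fourth-highest score of all members in CD93-negative replicate 1 (61.4) and was in no other list. Gtf2f1, the large subunit of TFIIF, was in neither CD93-positive library, against 53.2 and 17.8 in CD93-negative replicates 1 and 2, while its partner Gtf2f2 was in none. Its summits lay 157 and 199 bp upstream of the start, at the E-box and upstream of it. Of TFIIE, Gtf2e1 scored 26.3 and 5.44 in CD93-negative replicates 1 and 2 and Gtf2e2 48.7 in CD93-negative replicate 1 alone. Of the 7 TFIIH genes, 2 were listed in CD93-positive replicate 2, against 6 and 2 in CD93-negative replicates 1 and 2. The shares over all genes were 3.22%, 32.2% and 12.9% in these lists. The kinase Cdk7 and its cyclin Ccnh, which phosphorylate the polymerase, scored 25.2 and 29.5 in CD93-negative replicate 1 only, and Gtf2h3 was in no list. Gtf2h2 had the lowest score of all members in CD93-negative replicate 1 (5.94).

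Mediator had 32 genes in the set, and 1 of them was listed in CD93-positive replicate 2, against 25 listed in CD93-negative replicate 1 and 9 in CD93-negative replicate 2. Beside these stand 3.22%, 32.2% and 12.9% of all genes. By module, CD93-negative replicate 1 listed 9 of 11 head, 8 of 10 middle, 3 of 5 tail and 5 of 6 kinase-module genes, and each module thus had most of its genes in that list. In CD93-negative replicate 2 the counts were 4, 2, 2 and 1. Med26, which joins Mediator to elongation factors, was the Mediator gene of highest score, with 60.1 and 15.6 in CD93-negative replicates 1 and 2. Med29 (33.8 and 15.3), Med22 (40.9 and 10.2), Med11 (32.5 and 12.04), Med13 (33.9 and 11.8), Med16 (24.3 and 8.44) and Med20 (19.4 and 8.17) were in the same 2 lists. Med14, the scaffold of the complex, and Med1, which binds nuclear receptors, were listed in CD93-negative replicate 1 only, with scores of 24.7 and 16.7. Med25 was the reverse case, listed in CD93-negative replicate 2 alone with a score of 5.01. Med25 and Taf6 were the only 2 members in CD93-negative replicate 2 and not replicate 1, a pattern found in 0.192% of all genes. Med4, Med10, Med24, Med27, Med28 and Med12l had no gene-end summit anywhere.

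The kinase module, which docks reversibly on Mediator, scored below the median of the listed members in CD93-negative replicate 1, except for Med13. Ccnc scored 14.6 there, Med13l 14.7, Cdk8 16.5 and Med12 17.2, while Med13, which links the module to the core, scored 33.9. The median over the 5 listed genes was 16.5, against 28.3 over the 64 listed members and 23.9 over all listed genes. Only Med13 of the module was in CD93-negative replicate 2. In P-TEFb all 3 genes were listed in CD93-negative replicate 1, a list that reached 32.2% of all genes. Its cyclin genes Ccnt2 and Ccnt1 were the highest-scoring members, while the kinase Cdk9, at 15.4, was below both medians of the listed genes, like most of the kinase module.

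**Figure D3:**
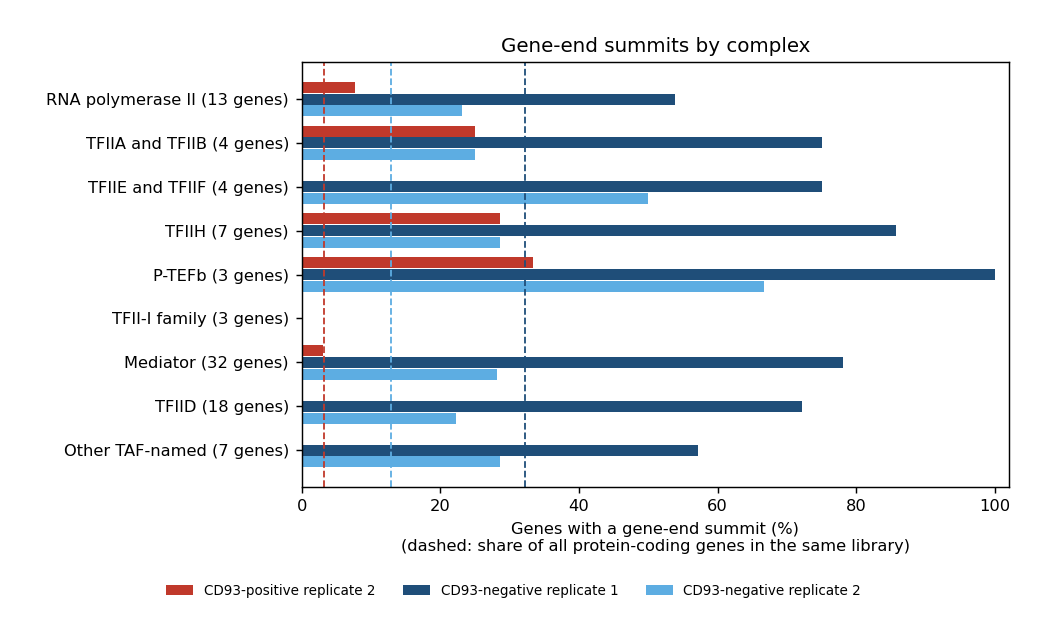
Share of genes with a gene-end summit by complex, for CD93-positive replicate 2 (red), CD93-negative replicate 1 (dark blue) and CD93-negative replicate 2 (light blue); dashed lines give the share of all protein-coding genes, 3.22%, 32.2% and 12.9%. CD93-positive replicate 1 had no member and is not drawn, and classes of 3 or 4 genes move in large steps.

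Of the germ-line paralogues, only Taf4b was in any list. Of the 4 members counted as tissue-restricted, 0 were listed in CD93-positive libraries, against 1 in CD93-negative replicate 1 and 0 in CD93-negative replicate 2. Over all genes the shares were 0.0183% and 3.22% in CD93-positive replicates 1 and 2, against 32.2% and 12.9% in CD93-negative replicates 1 and 2. Counts among 4 genes cannot be told from these shares. The other 87 members had 6 in CD93-positive replicate 2, against 63 and 25 in CD93-negative replicates 1 and 2. Taf7l, a TFIID subunit known from male germ cells, and its relative Taf7l2 were in no list, whereas Taf7 scored 45.0 in CD93-negative replicate 1. Gtf2a1l, the germ-line TFIIA subunit, was in no list, whereas Gtf2a1 was in 3. Taf4b, known for its part in the gonads, scored 43.5 in CD93-negative replicate 1, 110 bp outside the gene, against 55.3 for Taf4 in the same list, and Taf4b was absent from CD93-negative replicate 2, where Taf4 scored 9.33. With 4 genes, this is a description and no test was made.

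Among the other paralogue pairs, the more general gene was not always the one listed. Taf5l and Taf6l, which belong to the SAGA coactivator, scored 23.1 and 32.99 in CD93-negative replicate 1 and 10.1 and 9.13 in CD93-negative replicate 2. By gene ends their TFIID counterparts had fewer entries, with Taf5 in CD93-negative replicate 1 (16.8) and Taf6 in CD93-negative replicate 2 (7.05). Both Taf6l scores belong to summits at its 3′ end, 86 and 212 bp from the start of Tmem179b in CD93-negative replicates 1 and 2. By starts alone Taf6l was listed in CD93-negative replicate 1, with a summit 7 bp from its start, and not in CD93-negative replicate 2. It then had no more entries than Taf6. Taf9 was listed in both CD93-negative libraries and Taf9b in none. Med13 was in both and Med13l in CD93-negative replicate 1, and Med12 (17.2) was in CD93-negative replicate 1 while Med12l was in no list.

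Some genes carry the name of the series without being part of TFIID. Taf1a, Taf1b and Taf1c, subunits of the selectivity factor of RNA polymerase I, had no gene-end summit, and Taf1d of the same factor scored 38.8 in CD93-negative replicate 1. Taf15, an RNA-binding protein of the FET family, scored 28.9 there. The 3 genes of the TFII-I family, Gtf2i, Gtf2ird1 and Gtf2ird2, had none in any library.

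Where the lists shared a member, its summits lay within 250 bp of each other. The distance between the summits of the CD93-negative libraries was 3 to 224 bp, with a median of 53 bp over the 23 members in both. CD93-positive replicate 2 lay 10 to 212 bp from CD93-negative replicate 1 (median 37 bp, 6 members) and 49 to 179 bp from CD93-negative replicate 2 (median 74 bp, 5 members). Within 100 bp, 18 of the 23, 4 of the 6 and 3 of the 5 were still shared, and the farthest apart were those of Med16 (224 bp) and Gtf2h1 (212 bp). Of the 25 members of CD93-negative replicate 2, 23 were in CD93-negative replicate 1 (92.0%), and the same 23 were 35.9% of the 64 in CD93-negative replicate 1. Over all genes, 2787 were in both lists, of 2829 in CD93-negative replicate 2 and 7042 in CD93-negative replicate 1. Both member shares were somewhat below those of all genes.

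Members with higher scores in CD93-negative replicate 1 were more often in the other lists. Over all genes, those also in CD93-negative replicate 2 had higher scores too, and CD93-positive replicate 2 was not examined in this way. Of the 16 highest-scoring of its 64 members, at 41.4 to 85.1, 5 were listed in CD93-positive replicate 2 and 11 in CD93-negative replicate 2. Of the 16 lowest-scoring, at 5.94 to 19.7, 0 and 2 were. These counts by score were made for members only, so no share over all genes stands beside them. Among the 16 highest, Gtf2b, Gtf2e2, Taf7, Taf4b and Taf13 were in no other list. The median score in CD93-negative replicate 1 was 40.9 for members also in CD93-negative replicate 2 and 24.4 for those not in it, beside 36.9 and 17.9 over all genes. The scores of the 23 members in both CD93-negative libraries had a Spearman rho of 0.596 across genes, beside 0.635 over all 2787 such genes. These genes share 2 libraries and are not independent replicates.

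Most summits lay at the start of the gene. The start and strand were known for 79 members, and the other 12 were Med8, Gtf2e2, Med23, Med24, Ccnh, Polr2k, Med30, Taf2, Taf4b, Polr2d, Taf7 and Polr2g. Within 250 bp of a listed start were 4 of 6 summits in CD93-positive replicate 2, against 45 of 56 (80.4%, 95% interval 67.6 to 89.8) in CD93-negative replicate 1 and 20 of 25 (80.0%, 59.3 to 93.2) in CD93-negative replicate 2. All genes stood at 79.6%, 84.3% and 79.2% in the same 3 lists, so the members were placed like other genes. Upstream of the start were 5, 41 and 18 of these summits, with median offsets of -96.5, -51.5 and -129 bp. The exceptions at the 3′ end were Gtf2h4 and Taf6l, whose highest summits lay 9 and 5 bp from the start of Vars2 and 86 and 212 bp from the start of Tmem179b in CD93-negative replicates 1 and 2.

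**Figure D4:**
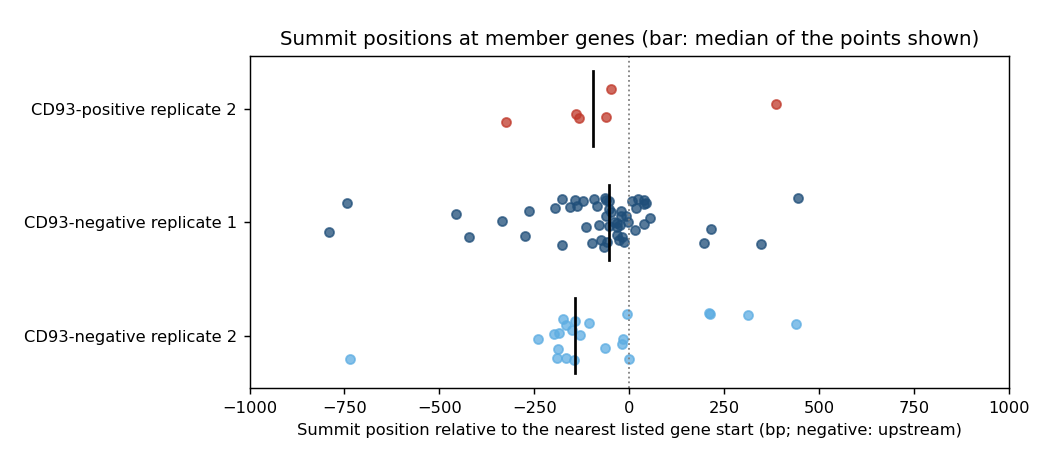
Position of the highest gene-end summit relative to the nearest listed start (bp, negative is upstream) for members with known strand; each point is 1 gene and the black bar is the median of the points shown. Gtf2h4 and Taf6l, whose summits lie beyond 1000 bp from their starts in the CD93-negative libraries, are not drawn, and most points lie between 250 bp upstream and the start.

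A site near a member was often near another gene as well. Another protein-coding gene had an end within 1000 bp of the summit for 3 of 6 members in CD93-positive replicate 2, against 21 of 64 in CD93-negative replicate 1 and 11 of 25 in CD93-negative replicate 2. All genes stood at 33.2%, 32.3% and 38.5% in these lists. The shared sites included those of Taf9 with Ak6 and Rad17, Med22 with the ribosomal protein gene Rpl7a, Med20 with Bysl, and Taf5l with Urb2. The site of Med29 was also that of Paf1, a subunit of an elongation complex on the polymerase. These scores belong to the site and cannot be assigned to 1 of the genes.

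The gene-end window missed some starts that lie inside the annotated gene. Taf1, the largest TFIID subunit, was counted as unlisted, but CD93-negative replicate 1 had a summit of score 33.1 at 57 bp from its listed start, which lies 5163 bp inside the annotated gene. Gtf2ird2 (32.9, at 511 bp) was of the same kind. Taf9b (4.98, at 254 bp) and Med10 (4.91, at 32 bp) have 2 listed starts each. In these, 1 start lies 0 and 22 bp from the gene end, and the summit was near the other start. When summits near starts were also taken, the members in no list fell to 21, against 25 by gene ends alone, beside 67.6% of all genes with no gene-end summit in any library. By starts alone, 6 of 79 members were listed in CD93-positive replicate 2, against 59 and 23 in CD93-negative replicates 1 and 2, where 3.6%, 34.9% and 14.1% of 17492 genes were.

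The promoters of the members were rich in CpG, which over all genes moves with how often a gene was listed. The observed over expected CpG ratio of the 300-base window had a median of 0.87 over 79 members and 0.576 over all 17492 genes. Among genes with a ratio of at least 0.6, the members stood at 6 of 73 (8.22%) in CD93-positive replicate 2, against 52 of 73 (71.2%) and 23 of 73 (31.5%) in CD93-negative replicates 1 and 2. The shares over all 8453 such genes were 6.58%, 58.8% and 24.7%, much nearer to those of the members than the shares over all genes. Of the 6 members below the ratio, 0 were listed in CD93-positive replicate 2, against 4 (Gtf2h4, Med11, Med15 and Med31) and 2 (Gtf2h4 and Med11) in CD93-negative replicates 1 and 2. These are 66.7% and 33.3%, so in the CD93-negative lists the members of both classes had close shares, with only 6 genes in the lower class. The Gtf2h4 summits lay at the start of Vars2. Over all 9039 genes below the ratio the shares were 0.52%, 9.28% and 3.13%. The part of CpG content in the counts of the members was not tested.

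**Figure D5:**
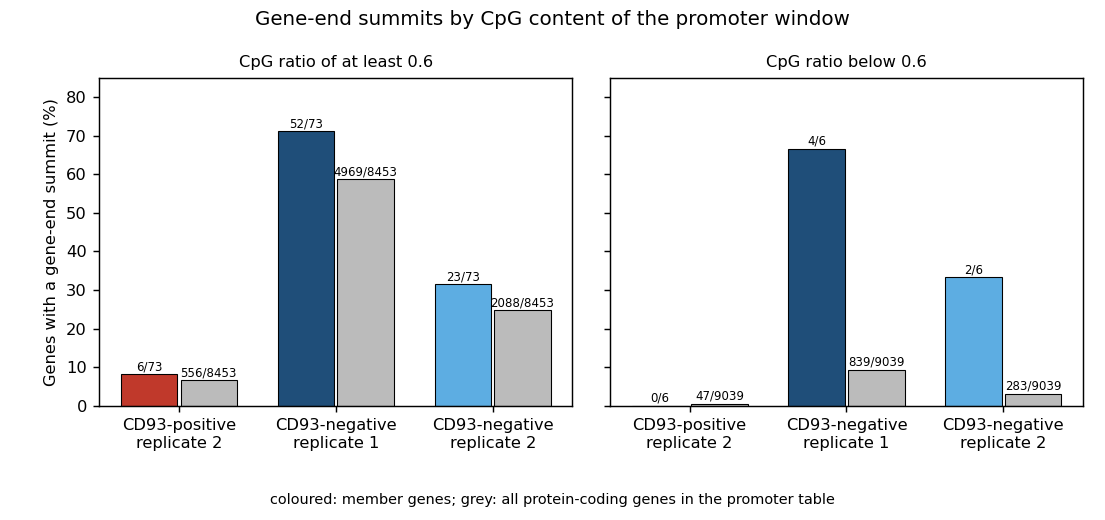
Share of genes with a gene-end summit among members (coloured) and all protein-coding genes of the promoter table (grey), for promoter windows with a CpG ratio of at least 0.6 (left) and below 0.6 (right); numbers over the bars are genes listed of genes in the class. In the left panel CD93-negative replicate 1 has 71.2% of members and 58.8% of all genes.

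Some motifs were in a larger share of member promoters than of all promoters, by counts alone. The ETS core was in 26 of 79 member promoters (32.9%), against 11.9% of all 17492, and the E-box in 16 (20.3%), against 7.90%. The YY1 motif AAGATGGC was in 8 (10.1%), against 3.22%, and the GC box in 54 (68.4%), against 46.3%. Among all genes listed in CD93-negative replicate 1 the GC box was in 71.8%, the E-box in 11.6% and the YY1 motif in 6.01%. The 56 listed members with a promoter stood at 76.8%, 21.4% and 10.7%. Shares of the CCAAT box (35.4% against 39.0%) and of the TATA box (15.2% against 13.3%) were close to those of all promoters. Among genes listed in CD93-negative replicate 1, the TATA box was in 8 of 56 members (14.3%) and in 5.75% of all genes. The CCAAT box was in 35.7% and 42.4% of these. The ETS core was in 18 of 56 members listed in CD93-negative replicate 1 (32.1%) and in 8 of 23 members not listed there (34.8%), while over all genes it was in 22.7% of those listed and 6.51% of those not. The GC box was in 43 of the 56 (76.8%) and 11 of the 23 (47.8%), beside 71.8% and 33.7% over all genes. The response element TGACGTCA was in 3 members, Med21 and Gtf2f1 among them, and the ZNF143 motif in 2, against 2.34% and 0.452% of all promoters. The NRF1 motif was in 0 of 79, against 1.32%.

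Other genes of the same pathway gave similar counts. Of 62 such genes outside the set, 59 matched the gene annotation used, and 5 were listed in CD93-positive replicate 2, against 47 and 20 in CD93-negative replicates 1 and 2. These lists reached 3.22%, 32.2% and 12.9% of all genes, and 6.58%, 58.8% and 24.7% of genes with a CpG ratio of at least 0.6. Whether the counts are particular to the pathway was not tested. The 5 in CD93-positive replicate 2 were Larp7, which holds P-TEFb in its inactive form (12.3), Ccnk, the cyclin of Cdk12 and Cdk13 (10.8), the elongation factor genes Supt4a (10.3) and Ell2 (7.48), and Polr3c of RNA polymerase III (3.37). Of 28 elongation genes, 25 were listed in CD93-negative replicate 1, and the remaining 3 were Tcea2, Tcea3 and Ell3. Hexim1, another P-TEFb inhibitor, was in neither CD93-positive library, against 70.4 and 15.7 in CD93-negative replicates 1 and 2. Of 15 matched RNA polymerase I and III subunit genes, 12 were in CD93-negative replicate 1. The TBP relatives Tbpl1 and Tbpl2 were in no list.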

How the data were processed

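The deposited files were lists of 1-bp ATAC-seq summits, 1 list per library. Bowtie2, mm10 and MACS2 are named in the submitters' processing notes: their order and settings are not given there. Versions, filters and thresholds are not stated in the labels. The deposited score was read as −log10 (of p or q, which is not stated) and was ranked within lists only. Groups came from sample titles.

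Python 3.11.15, numpy 2.4.6, scipy 1.17.1 and matplotlib 3.10.9 were used, and gene assignment was tested on simulated data. Gene positions, starts and promoter sequences came from RefSeq (GRCm38.p6), which matched 79 of 91 members to a promoter. Each member took its highest-scoring summit within 1000 bp of either gene end. Members, lists, motifs and tests were chosen with earlier results of these data known; the CpG classes were added later. Named genes were all members in a CD93-positive library, up to 15 others in both CD93-negative libraries by rank, those in CD93-negative replicate 2 only, the 5 highest in CD93-negative replicate 1, and the paralogue pairs; other members are named by class or to complete a small count. Groups were compared by an exact permutation test. No list of artefact-prone regions was applied. Alternatives covered windows, score minimums, list lengths, sharing distances, starts, nearest genes and left-out libraries.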

Additional observations from a re-analysis of the deposited data

How the results depend on the processing

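Of 77 alternative values, 66 stayed within 1.5 times of the reported value and 11 moved by more; none reversed. The difference of -41.5 members became -3.5 with lists of at most 711 summits and -25 with at most 2755. With a summit given only to the gene of nearest end, CD93-positive replicate 2 had 3 members, and members were 0.51% of its gene-end genes, against 0.852% with all genes within the window. With a score of at least 10 it had 1, and CD93-negative replicate 2 had 15. With lists of at most 711 summits CD93-negative replicates 1 and 2 had 6 and 7, and with at most 2755 CD93-negative replicate 1 had 31. The counts with score minimums and shorter lists fall because fewer summits are counted. With nearest ends, Gtf2h1, Gtf2h5 and Polr2b left CD93-positive replicate 2 because an end of another gene was nearer to the summit. With summits shared only within 100 bp, CD93-positive replicate 2 shared 3 members with CD93-negative replicate 2. The difference ranged from -61 to -22 when each library was left out in turn, with -22 without CD93-negative replicate 1; no exact permutation test there could pass. With the replicate block, pairing same-numbered libraries, the difference was -41.5 (exact permutation p = 0.5). The labels do not say that the numbers pair the libraries, and the summit names carry other numbers than the titles (2 and 3 for the CD93-positive lists, 1 and 3 for the CD93-negative). List length, for which depth is unknown, limits what could be detected.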

Other observations

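Summits inside members and more than 1000 bp from either end were few, with 1 in CD93-positive replicate 2, against 6 listed in CD93-negative replicate 1 and 1 in CD93-negative replicate 2. The site inside Cdk8, the kinase of the Mediator kinase module, was among the highest-scoring summits of each of these lists. It scored 76.7 in CD93-positive replicate 2, against 119.9 and 30.3 in CD93-negative replicates 1 and 2, with ranks of 12 of 711, 22 of 7989 and 19 of 2755. The summits lay 29883, 29889 and 29908 bp from the listed start of the gene. At the gene end itself Cdk8 was listed in CD93-negative replicate 1 alone, with a score of 16.5. The inner site of Gtf2i, 1143 bp from its listed start, had a score of 18.5 in CD93-negative replicate 1. Cdk8 and Gtf2i were picked here with their values in view.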
